A study of Arabidopsis thaliana with 12 samples.

Results

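The genes described here are 3 nuclear genes for thiol redox enzymes of the chloroplast and the gene for the chloroplastic lipocalin, measured with and without plastocyanin. They are AT3G52960 (PRXIIE), AT2G41680 (NTRC), AT2G04700 (FTRB) and AT3G47860 (CHL). Each gene was taken from the array features that the platform annotation assigns to exactly 1 gene. All 4 genes were found, on features 1966, 1759, 3436 and 1066 in that order, among 691 genes on such features and 3439 features in all. The rule uses annotation only, although the set was proposed with earlier results of these data known. None of the 4 genes is also listed on a feature shared by several genes.

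The study compared Arabidopsis thaliana of the wild type (WT) with the pete1 pete2 double mutant, both of ecotype Columbia 0 and both grown on MS medium, a plant culture medium. Plastocyanin, a soluble copper protein that moves electrons from the cytochrome b6f complex to photosystem I inside the thylakoid, is missing from the mutant in both of its forms. Total RNA was measured in 6 samples of each genotype. The labels used here give no age, organ, light condition or number of plants.

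Chloroplasts pass electrons from photosystem I to ferredoxin, and part of them goes on to protein thiols. Ferredoxin-thioredoxin reductase, of which FTRB is the catalytic subunit, reduces thioredoxins with electrons from ferredoxin, and the thioredoxins switch on enzymes of the Calvin cycle by reducing their disulfide bonds. NTRC joins an NADPH-dependent thioredoxin reductase and a thioredoxin in a single protein and is known for reducing the 2-Cys peroxiredoxins. PRXIIE is a type II peroxiredoxin, which breaks down peroxides with a reactive cysteine. The chloroplastic lipocalin belongs to a family of small carriers of hydrophobic molecules and is known for its part in protecting thylakoid membranes under light and drought stress.

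The values were one-colour array intensities in relative units. Column totals lay between 3493 and 3778, and 95 of the features read 0 in every column. Columns 1 and 2, 3 and 4, and 5 and 6 of each genotype agreed far more closely than any others, with a median absolute log2 difference of at most 0.138, against at least 0.310 between other columns. The mean of such a pair was therefore used as a single replicate (n = 3 for each genotype). No feature was assigned to either plastocyanin gene, PETE1 or PETE2, alone or with others, so the values give no check on the genotype labels. Of 5 genes fixed as markers of green tissue, 1 was measured on a feature of its own. That gene, LHB1B2, an antenna protein of photosystem II, stood at 10.6 ± 2.87 (SD, n = 3) on the normalised intensity scale in WT and at 9.03 ± 2.69 in pete1 pete2. None of the 5 root markers was on such a feature, so the share of root tissue was not analysed here.

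Of the 4 genes, none passed limma's test in either direction. CHL had the largest difference of the 4, with a ratio of the mutant to WT of 1.59 between means taken on the log2 scale and all 3 mutant pairs above all 3 WT pairs. Groups that do not overlap were found for 1 of the 4 genes and for 9.92% of all tested features, and those of CHL overlapped when columns were left as deposited or scaled to the same total. PRXIIE and NTRC had lower means in the mutant and FTRB a higher one, each with overlapping groups. Over all 3438 tested features, 1 passed at an adjusted p of 0.05 (0.0291% of features), and it was none of these 4 genes. In total RNA of whole samples, a changed share of cells that express a gene and a changed amount of its RNA per cell cannot be told apart, whether the gene is higher or lower.

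**Figure D1:**
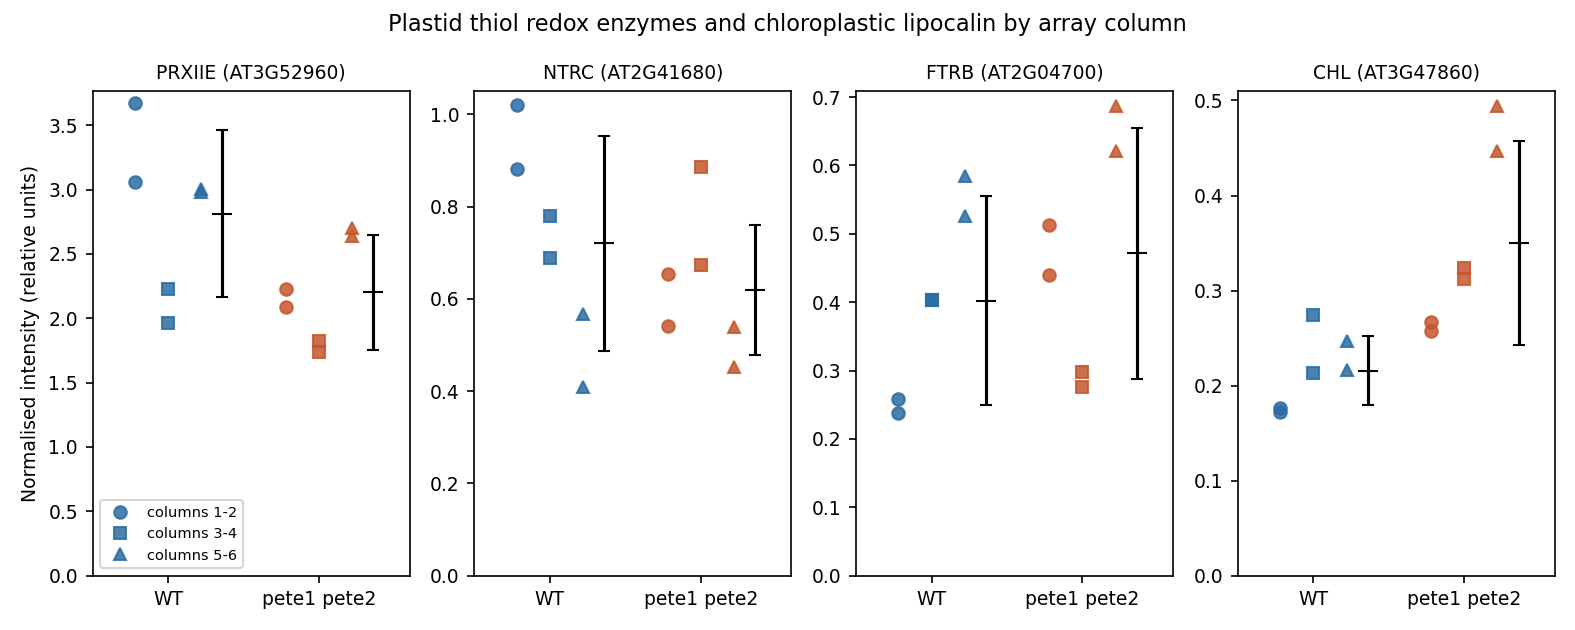
Normalised intensity (linear, relative units) of the 4 genes in the 12 array columns, with the columns of a pair as symbols of the same shape, WT in blue and pete1 pete2 in red. Black marks are means of the 3 pair values with their SD; in the panel for CHL the WT mean is 0.216 and the mutant mean 0.350.

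FTRB passes electrons from ferredoxin to thioredoxins and so stands at the head of the ferredoxin-driven branch. Its normalised intensity in WT was 0.249 for the pair of columns 1 and 2, 0.403 for 3 and 4, and 0.555 for 5 and 6. In the mutant the same pairs gave 0.475, 0.287 and 0.653. The groups overlapped widely, with WT columns 1 and 2 lowest and mutant columns 5 and 6 highest. The log2 fold change of the mutant over WT was 0.23 (SE 0.44), with a 95% interval from -0.90 to 1.35 and a limma adjusted p of 1. Pairs of 1 genotype differed by up to 2.28-fold, while the 2 columns of a pair differed by at most 1.17-fold. The sign of the difference was not stable: it was -0.0089 with the values as deposited, -0.083 without WT columns 1 and 2 and -0.049 without mutant columns 5 and 6.

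NTRC draws its electrons from NADPH in place of ferredoxin. Its normalised intensity in WT was 0.948, 0.732 and 0.482 for the pairs 1 and 2, 3 and 4, and 5 and 6, and in the mutant 0.594, 0.772 and 0.494. Both genotypes had their lowest value in columns 5 and 6, and the highest of all 6 values was in WT columns 1 and 2. The log2 fold change was -0.19 (SE 0.31), with a 95% interval from -0.99 to 0.62 and a limma adjusted p of 1. Without WT columns 1 and 2 it was 0.038, with the opposite sign. NTRC also had the largest disagreement between the columns of a pair among the 4 genes, up to 1.39-fold in WT columns 5 and 6.

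PRXIIE uses thiol electrons to remove peroxides. It measured 3.35, 2.09 and 2.99 in the 3 WT pairs, in the same order, and 2.16, 1.78 and 2.67 in the mutant pairs. The highest values were those of WT columns 1 and 2 and 5 and 6, but the groups overlapped, since WT columns 3 and 4 were below 2 of the 3 mutant pairs. The WT mean was 2.81 ± 0.649 (SD, n = 3) and the mutant mean 2.20 ± 0.446. The log2 fold change was -0.34 (SE 0.25), with a 95% interval from -0.98 to 0.29 and a limma adjusted p of 0.991. It kept its sign in all 17 alternatives, from -0.54 without WT columns 3 and 4 to -0.052 when each column was centred on its median. Relative to the median of all features under the same scaling, PRXIIE differed by -0.33 after quantile normalization, but by -0.050 as deposited, -0.045 with median centring and -0.050 with scaling to the total.

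CHL, the lipocalin, measured 0.174, 0.241 and 0.231 in the WT pairs and 0.262, 0.318 and 0.470 in the mutant pairs. The lowest mutant pair was above the highest WT pair, and mutant columns 5 and 6 stood highest of all. The single columns did overlap, since WT column 3 was at 0.274 and mutant columns 1 and 2 at 0.258 and 0.267. The WT mean was 0.216 ± 0.0363 (SD, n = 3) and the mutant mean 0.350 ± 0.107. The log2 fold change was 0.67 (SE 0.27), with a 95% interval from -0.018 to 1.36 and a limma adjusted p of 0.690. An exact two-sided permutation test of the 3 against 3 pair values gave p = 0.1, the smallest that this design allows. A larger absolute log2 fold change was found in 8.38% of all tested features. Without mutant columns 5 and 6 that of CHL was 0.44.

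The separation of CHL depended on how columns were brought to a common scale. In the values as deposited, the WT pairs gave 0.221, 0.231 and 0.248 and the mutant pairs 0.200, 0.432 and 0.314, so that mutant columns 1 and 2 fell below all of WT. There the log2 fold change was 0.36 (SE 0.30), beside a median of -0.27 over all features, and after scaling to the total it was 0.38 with overlapping groups as well. When each column was centred on its median, all mutant pairs were again above all WT pairs, with a log2 fold change of 0.64 (SE 0.27). Relative to the median of all features under the same scaling, CHL differed by 0.68 after quantile normalization, 0.64 as deposited, 0.64 with median centring and 0.64 with scaling to the total. The limma adjusted p lay between 0.690 and 0.872 in these 4 scalings. The lowest of any alternative, 0.0576, came from counting the 12 columns as separate samples, which ignores how closely paired columns agree and can make p-values too small.

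**Figure D2:**
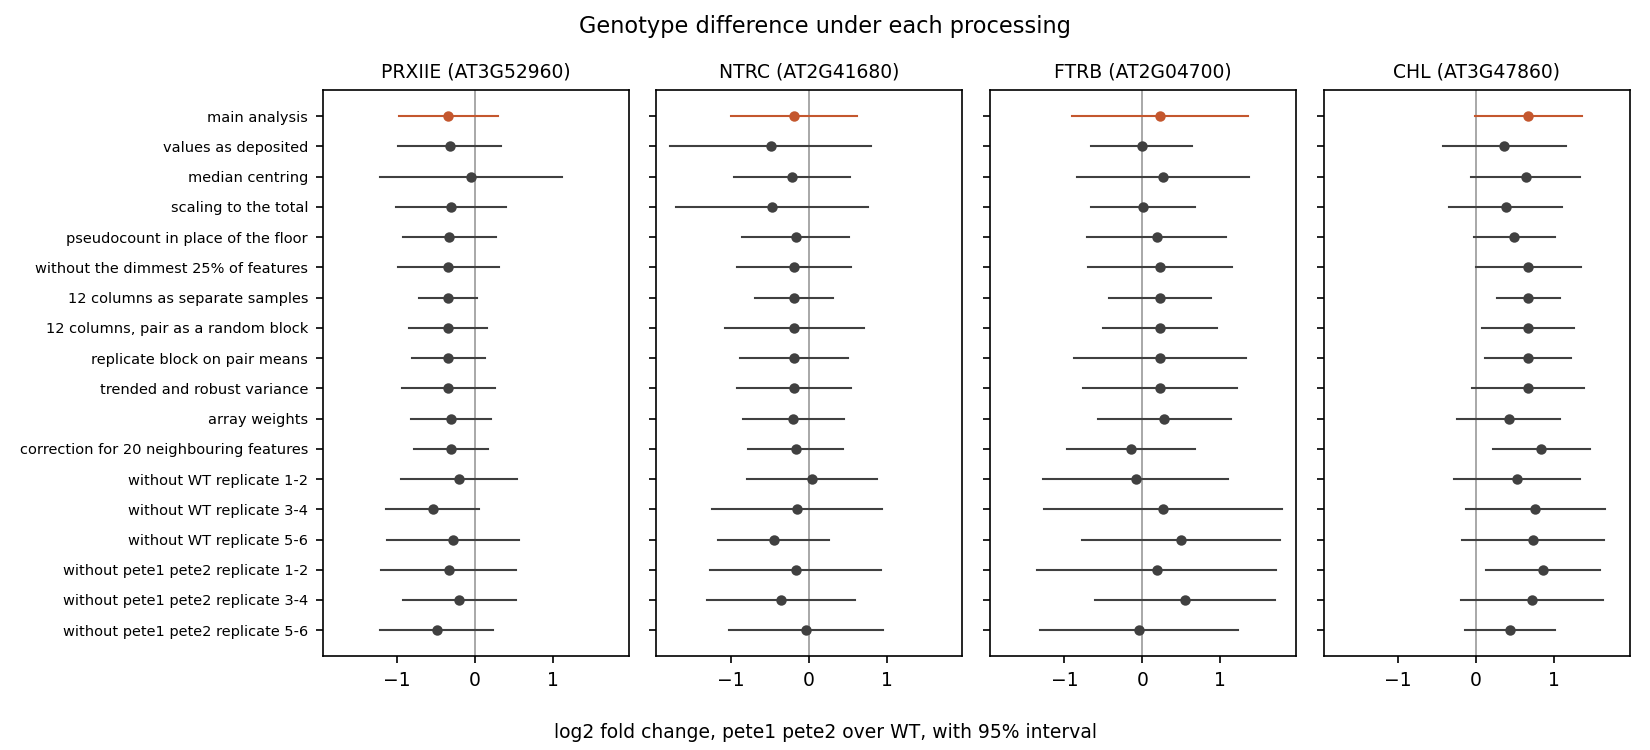
Log2 fold change of pete1 pete2 over WT for the 4 genes (points) with limma's 95% interval (lines) in the main analysis (red) and 17 alternatives (grey); the vertical line marks no difference. CHL lies to the right of it throughout, between 0.36 and 0.86, while FTRB crosses from -0.15 to 0.55.

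Among the 4 genes, the shape of the profile over the 6 pair values differed more than it was shared. FTRB was lowest in WT columns 1 and 2, where PRXIIE and NTRC were highest. CHL was also lowest in WT columns 1 and 2, and both CHL and FTRB were highest in mutant columns 5 and 6. Likeness was measured as the root mean square difference between 2 profiles over the 6 pair values, each centred on its own mean, on the log2 scale. It was smallest for CHL and FTRB, at 0.43, and largest for NTRC and FTRB, at 0.84. For no gene of the 4 was another of them near the top: by likeness to CHL, FTRB was 117th of 664 other genes with a signal.

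By the same measure, the 3 nearest genes to each of the 4 were named. Among 664 genes compared over 6 values some are always near, so nearness was not taken as a link in function. Nearest to FTRB was AT1G32060 (PRK), the phosphoribulokinase of the Calvin cycle, at 0.15, followed by AT2G46630 and AT4G39760. Nearest to CHL were AT3G57050 (CBL), the cystathionine beta-lyase of methionine synthesis, at 0.19, AT1G72020 and AT1G78620. Nearest to NTRC were AT2G46300 at 0.072, AT5G54110 (MAMI) and AT2G44560 (GH9B11), a glycosyl hydrolase. Nearest to PRXIIE were AT3G61870 at 0.092, AT5G39980 and AT3G59980.

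The 20 features nearest in number to each gene were set beside it, in case neighbouring features share deviations between columns. Whether they do so over the whole array was not tested. Around FTRB, 17 of the 20 neighbours had a positive log2 fold change, with a median of 0.30. In WT columns 1 and 2 the neighbours stood 0.66 below their own mean while FTRB stood 0.73 below its own. In mutant columns 3 and 4 they went opposite ways, with the neighbours at 0.20 and FTRB at -0.53. When the median deviation of these neighbours was subtracted in each column, the log2 fold change of FTRB was -0.15 (SE 0.34). Around CHL only 4 of the 20 were positive and their median was -0.25, opposite in sign to CHL. After the same correction CHL had a log2 fold change of 0.84 (SE 0.26, limma adjusted p of 0.726). The neighbours of PRXIIE and NTRC had medians of -0.058 and -0.061, and the correction left these genes at -0.31 and -0.17.

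**Figure D3:**
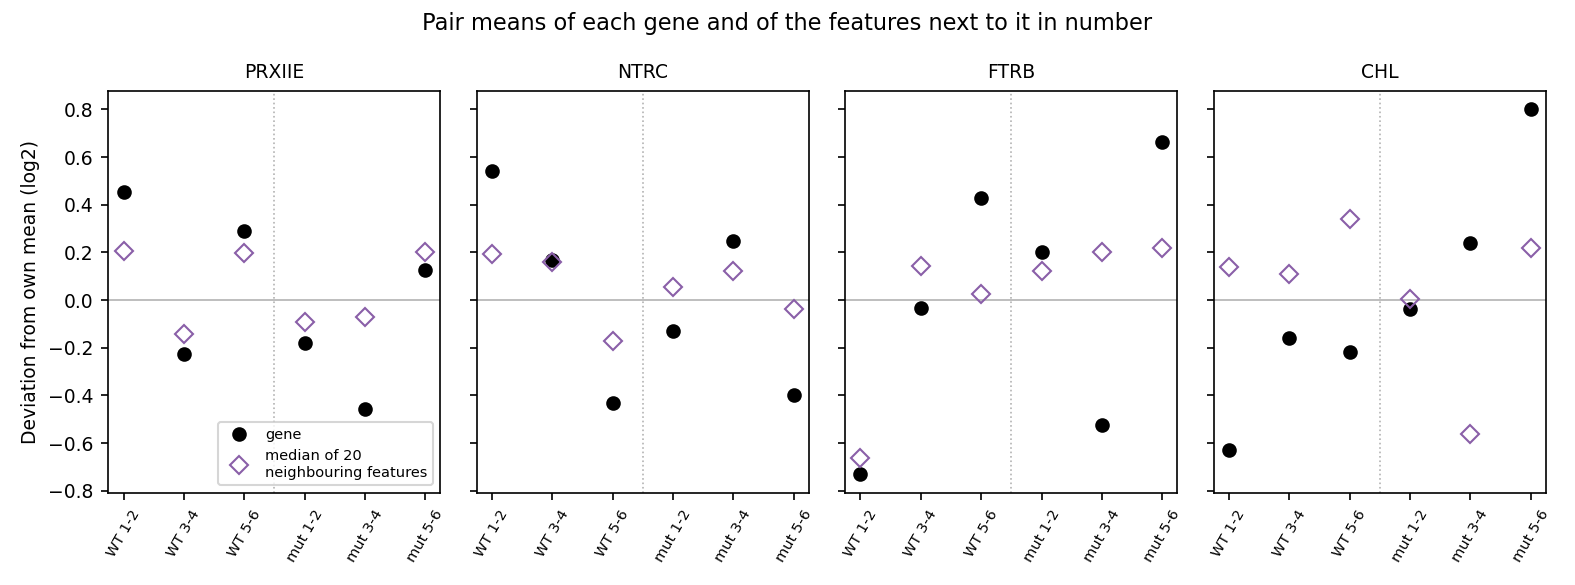
Deviation of each pair mean from the gene's own mean (filled circles, log2) and the median of the same quantity over the 20 features nearest in number (open diamonds), for the WT pairs left of the dotted line and the mutant (mut) pairs right of it. In WT columns 1 and 2 the neighbours of FTRB lie at -0.66, close to the gene itself at -0.73. In mutant columns 3 and 4 the neighbours of FTRB lie at 0.20 and FTRB at -0.53, and the neighbours of CHL at -0.56 and CHL at 0.24.

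Other genes of the same pathways were taken from 6 lists with 96 further genes: plastid thioredoxins and their reductases, ferredoxins and ferredoxin-NADP reductases, plastid peroxidases and antioxidants, plastid enzymes regulated by thioredoxin, lipocalins and photoprotection genes, and thiol redox enzymes outside the plastid. Only 6 of the 96 were on a feature of their own, and 11 were only on features shared by several genes, which are not reported. Of the 6, 0 passed limma's test in either direction, and 0 had an unadjusted p under 0.05, against 7.48% of all tested features. The median log2 fold change of the 6 was -0.16, beside -0.0092 over all tested features. No thioredoxin, ferredoxin or second subunit of the ferredoxin-thioredoxin reductase was among them.

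SRX, the sulfiredoxin that repairs over-oxidised 2-Cys peroxiredoxins, measured 0.413, 0.262 and 0.481 in the WT pairs and 0.388, 0.981 and 0.233 in the mutant pairs. Mutant columns 3 and 4 stood apart from all other values, and the log2 fold change was 0.26 (SE 0.60). It was -0.31 without those 2 columns, and -0.17 with the values as deposited.

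Among the enzymes switched by thioredoxin, SBPASE, the sedoheptulose bisphosphatase of the Calvin cycle, was the only one of the 6 genes whose groups did not overlap, as those of 9.92% of all tested features did not. It measured 1.06, 0.972 and 0.695 in WT and 0.686, 0.639 and 0.623 in the mutant. Its log2 fold change was -0.46 (SE 0.18), with a limma adjusted p of 0.683. The gap between the lowest WT and the highest mutant pair was small beside the range within WT. PRK had a log2 fold change of 0.067 (SE 0.35), AT5G58330 one of -0.20 (SE 0.28) and CHLM, the magnesium protoporphyrin methyltransferase of chlorophyll synthesis, one of -0.11 (SE 0.30), all with overlapping groups. The signs of PRK, AT5G58330 and CHLM each turned in at least 1 alternative.

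From the list of lipocalins and photoprotection genes, AT4G31530 was the gene measured beside CHL. It stood at 26.2, 22.7 and 26.6 in the WT pairs and at 14.9, 17.4 and 29.2 in the mutant pairs, where columns 5 and 6 were highest. The log2 fold change was -0.35 (SE 0.28, limma adjusted p of 0.991), and it became 0.24 when each column was centred on its median. It was -0.64 without mutant columns 5 and 6 and -0.15 without mutant columns 1 and 2.

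**Figure D4:**
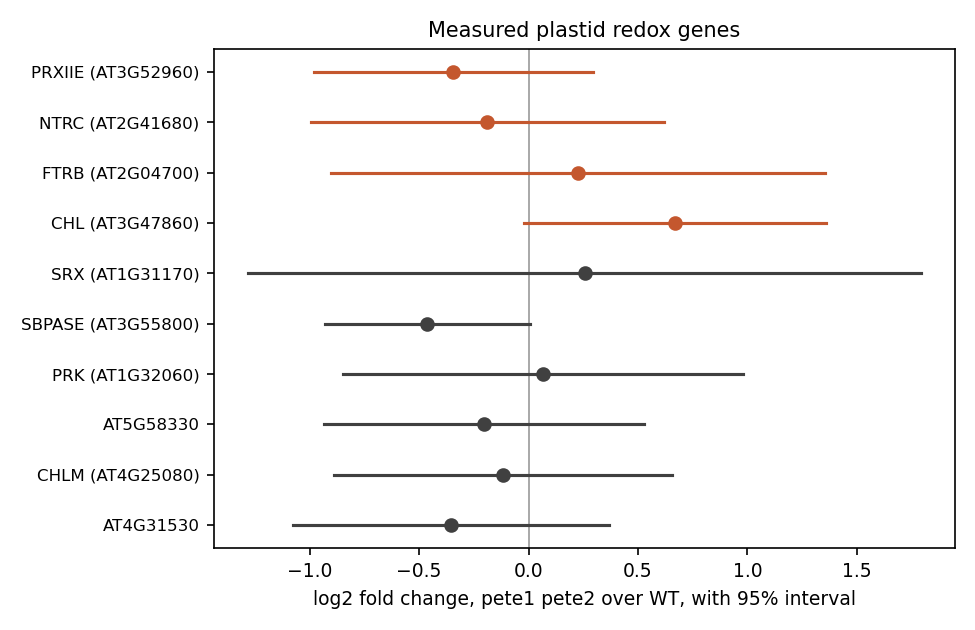
Log2 fold change of pete1 pete2 over WT (points) with limma's 95% interval (lines) for the 4 genes (red) and the 6 other measured genes of the redox lists (grey). Every interval includes 0, the vertical line; that of CHL begins at -0.018 and that of SBPASE ends at 0.0078.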

How the data were processed

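The authors deposited a table of linear array intensity values for 3439 features in 12 columns, with column means near 1. The scanner, background correction and scaling are not given in the sources used here. Samples were grouped by title. Nothing in the labels ties samples to separate plants, so the p-values rest on the spread among these samples alone, and that spread may be technical. Columns were quantile normalized because their medians differed by 0.95 on the log2 scale, a floor of 0.0281, the 1st percentile of all values above 0, was set before log2 was taken. None of the 4 genes was listed at 0 in any column. Closely agreeing columns were averaged on the log2 scale, and intensities are printed back on the linear scale. Averaging the features of 1 gene that had several left 3438 features.

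The genotypes were compared with limma 3.58.1 under R 4.3.3, by lmFit followed by eBayes. Its two-sided p-values were adjusted by Benjamini-Hochberg across the whole table, with a threshold of 0.05. In each of 20 simulated runs, 200 features were changed by 1.5-, 2-, 4- or 8-fold, with noise drawn for each feature on its own. The same runs before any change gave 0 calls. With so many changes the adjusted cutoff is looser than in the measured data, where 1 feature passed. Even so, the fit found only 5.6% of 1.5-fold changes and 20.6% of 2-fold changes, with a mean of 6.25 false calls per run. A gene that did not pass is therefore not shown to be unchanged. Of 692 features with 1 gene, 690 matched the TAIR10.1 gene table, used for names only. The genes, lists and tests were chosen with earlier results of these data known. The named genes are the 4 genes, every listed gene on a feature of its own, and the 3 genes with the nearest profile for each of the 4. Same-numbered pairs of the genotypes were checked for shared deviations, with correlations across features of 0.33, -0.0026 and 0.38. The labels do not say whether equal numbers belong together. The main fit therefore used no pairing, and a block on the number was an alternative. The alternatives were other scalings, a pseudocount, a filter on dim features, other units of replication and variance models, array weights, a correction for neighbouring features and omission of each pair.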

Additional observations from a re-analysis of the deposited data

How the results depend on the processing

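In limma with Benjamini-Hochberg adjustment, none of the 4 genes passed in any of the 17 alternatives. Of their 68 values, 63 kept their direction and 5 changed sign. Of the 102 values of the 6 other genes, 90 kept it and 12 changed sign. Unless a value shows it, the cause was not tested. The sources used here do not give the array's background signal, which can limit low values. CHL had lower means than FTRB in both genotypes, and an effect of background on these genes was not tested.

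As deposited, the values gave 0 features higher in the mutant, with FTRB at -0.0089, SRX at -0.17 and PRK at -0.14. With scaling to the total, 0 were higher, SRX was at -0.15 and PRK at -0.12. With median centring, 0 were higher, AT5G58330 was at 0.0076 and AT4G31530 at 0.24. The correction for neighbouring features gave 2 lower features, FTRB at -0.15 and PRK at -0.16, and array weights gave 1 lower feature. The 12 columns as separate samples gave 150 higher and 75 lower features, and the pair as a random block 15 and 4; columns of a pair count as independent in the first of these. The replicate block on pair means gave 0 higher features, and 2 of the 3 WT pairs had their best correlation with the mutant pair of their own number. Without 1 pair at a time, the counts were from 0 to 1 in either direction. The log2 fold changes then ranged from -0.45 to 0.038 for NTRC, -0.083 to 0.55 for FTRB, -0.31 to 0.72 for SRX, -0.17 to 0.35 for PRK and -0.38 to 0.13 for CHLM. They ranged from 0.44 to 0.86 for CHL, -0.54 to -0.20 for PRXIIE, -0.64 to -0.34 for SBPASE, -0.64 to -0.15 for AT4G31530 and -0.42 to -0.0053 for AT5G58330.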
